A study of Mus musculus with 5 samples.

Results

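The solute carriers described here move amino acids and amino acid-derived neurotransmitters across membranes in neuroepithelial cells (NECs) of the mouse, the stem cells that line the early neural tube. Members were all genes of the deposited table whose symbol places them in the Slc1, Slc3, Slc6, Slc7, Slc36, Slc38 or Slc43 family, with Slc1a3 left out, which gave 61 of 21801 genes. They comprised 6 Slc1, 2 Slc3, 19 Slc6, 16 Slc7, 4 Slc36, 11 Slc38 and 3 Slc43 symbols. 1 of them, Slc7a6os, carries the name of its neighbour Slc7a6 on the opposite strand and is not a carrier. RNA sequencing profiled 5 NEC libraries, replicates 1 to 5 of a single group with no genotype or treatment named, and no second group was there to compare them with. The series text calls the cells purified and the labels call them neural progenitor cells, while age, strain and the way of purification are not stated. No label ties a replicate to an animal of its own, so each p-value reflects the spread among these 5 libraries, which may be technical.

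Amino acid carriers supply a dividing cell with the building blocks of protein, nucleotides and glutathione, and the leucine and arginine they bring in are sensed by the mTORC1 kinase. Several families divide the work. Heteromeric exchangers pair a glycoprotein heavy chain with a transporting light chain, sodium-coupled carriers of the Slc1, Slc6 and Slc38 families concentrate their substrates, and Slc36 and Slc43 proteins work with protons or by facilitated diffusion. In mature brain, members of the Slc1 and Slc6 families clear glutamate, GABA, glycine, serotonin, dopamine and noradrenaline from the extracellular space.

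Levels were in FPKM, a read count scaled to transcript length and to library size, by which levels of different genes were compared. The cDNA was primed with poly-dT and amplified with no molecular identifiers described. Differences that these steps may make between genes were not tested. A gene was called above or below 1 FPKM when limma's moderated test of log2(FPKM + 1), adjusted by the Benjamini-Hochberg method over all genes tested, gave an adjusted p under 0.05. The libraries summed to between 747034 and 847625 FPKM, and the steps between their low values implied 20.6 to 28.4 M reads (1 M = 1000000). At that depth 1 read in a transcript of 2000 bases was worth 0.0196 to 0.0269 FPKM. Of the 12 neural progenitor markers, 11 lay above 1 FPKM and none below, with summed levels of 277 to 328 FPKM. Markers of other cell types were present as well: the 12 mesenchyme genes summed to 40.5 FPKM in replicate 1 and to between 68.1 and 144 FPKM in the others, with 8 above 1 FPKM. The 8 endothelial genes summed to 16.5 to 23.8 FPKM with 2 above 1 FPKM and 3 below, and Egfl7 alone stood at 10.4 to 13.7 FPKM. The 9 surface ectoderm genes summed to 119 to 184 FPKM with 7 above and 1 below. No gene of these 3 lists was listed at 0 in all libraries. The 10 neuron genes summed to 93.6 to 132 FPKM, with 6 above 1 FPKM and 4 below. The 8 radial glia and astrocyte genes summed to 39.8 to 54.5 FPKM, with 3 above and 3 below. The 6 neural crest genes summed to 13.1 to 28.1 FPKM, with 2 above and 3 below. Of the 8 erythroid genes, none lay above 1 FPKM and 4 lay below. The 6 measured microglia and macrophage genes summed to 1.01 to 3.35 FPKM, with Cd68 above 1 FPKM, 3 below and Aif1 and Tyrobp listed at 0. In bulk samples fewer cells of a type and less RNA per cell cannot be told apart.

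NEC libraries held high levels of a few carriers of neutral amino acids and glutamine and low levels of most neurotransmitter carriers of the set. The set leaves out the glutamate carrier Slc1a3, at 15.6 ± 2.90 FPKM (SD, n = 5). Markers of other cell types were present in the libraries, and the part of those cells in these levels was not tested. Of the 60 members tested, 30 lay above 1 FPKM, beside 52.3% of all 19706 genes tested, and 26 lay below, beside 41.4% of all genes tested. These counts are close to what genes in general showed, so the set as a whole did not stand out, and the counts at an unadjusted p under 0.05 were also 30 and 26. The other 4 tested members were called neither way, and Slc6a12 was listed at 0 in all 5 libraries, as were 2095 genes of the table, including Actb, which almost every cell uses. The median over members of the mean level was 1.23 FPKM, beside 1.04 FPKM over all genes of the table. Within the set, levels spanned from single reads to 82.8 FPKM, and 6 genes (Slc38a4, Slc38a6, Slc38a2, Slc38a1, Slc7a6 and Slc3a2) carried between 65.5% and 71.4% of each library's summed member FPKM. Against a level of 2 FPKM, 21 members lay above and 32 below, and against 0.5 FPKM 34 lay above and 20 below.

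**Figure D1:**
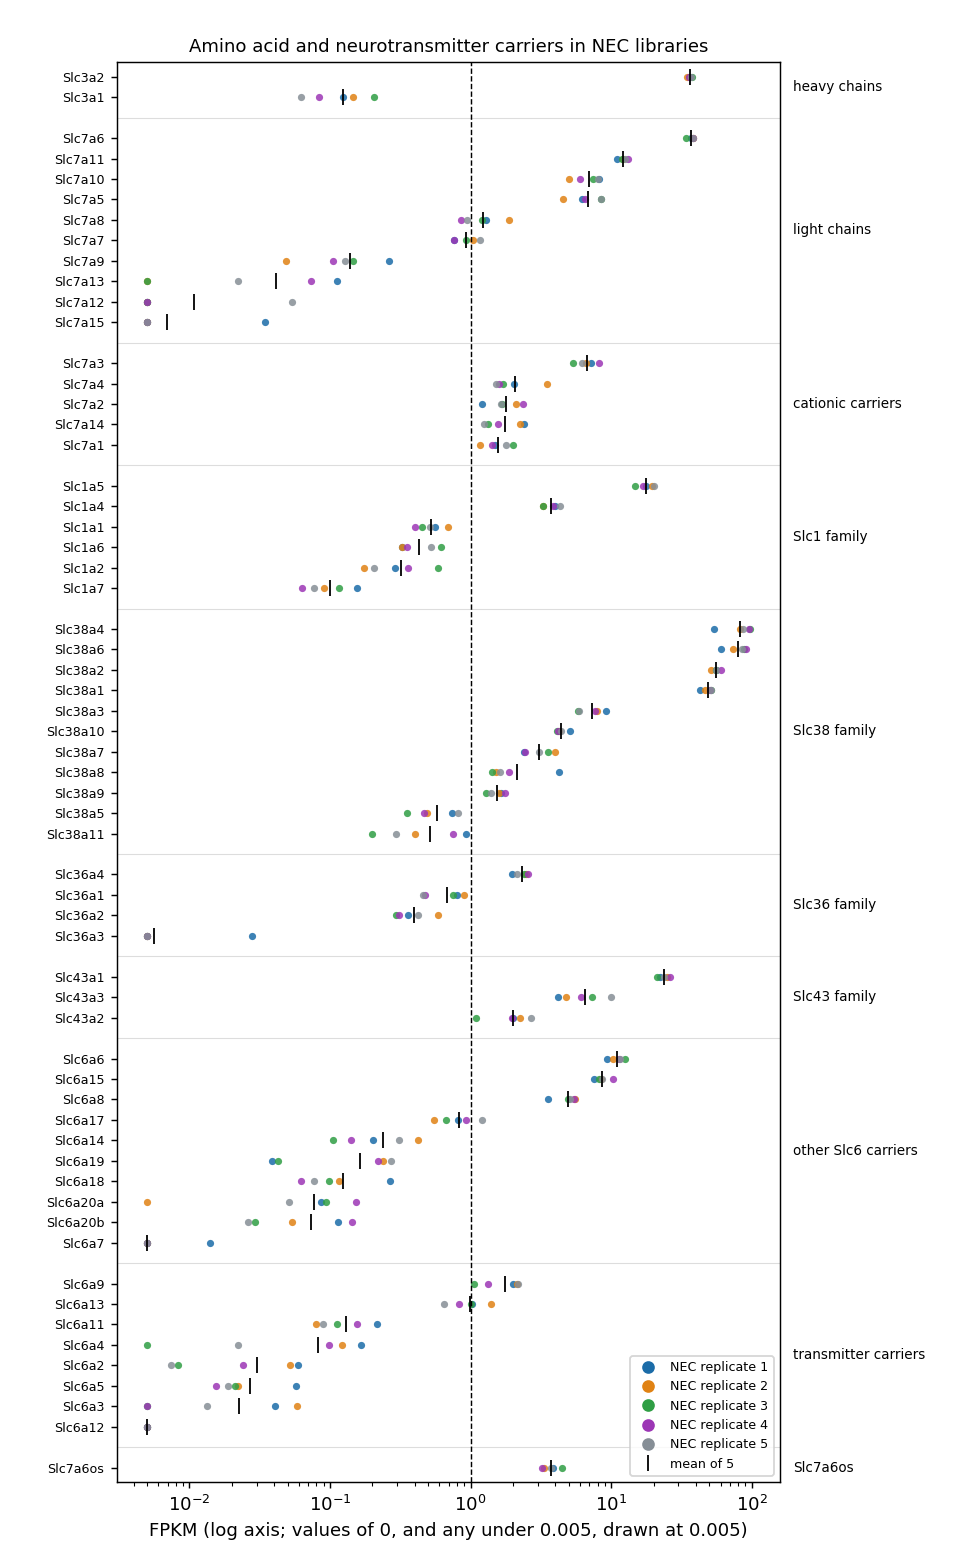
FPKM of 60 of the genes in each of the 5 NEC libraries on a log axis, grouped by role; points are libraries, ticks are means and the dashed line marks 1 FPKM. Slc38a4, Slc38a6, Slc38a2 and Slc38a1 sit highest, Slc3a2 and Slc7a6 follow at similar levels, and all transmitter carriers except Slc6a9 and Slc6a13 stay under 0.3 FPKM in every library.

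Of the glycoprotein heavy chains, which carry light chains to the cell surface, the NEC libraries mainly held Slc3a2 (4F2hc, also known as CD98). Slc3a2 (ENSMUSG00000010095, chromosome 19, 8706882 to 8723369 on mm10) stood at 35.6, 34.8, 37.7, 35.7 and 37.2 FPKM in replicates 1 to 5. Among the 31 members averaging 1 FPKM or more this was the smallest spread, with an SD of 0.05 on the log2 scale and a mean of 36.2 ± 1.23 FPKM (SD, n = 5). The other heavy chain, Slc3a1 (rBAT), which serves cystine and dibasic amino acid uptake in kidney, was at 0.125, 0.145, 0.207, 0.0836 and 0.0617 FPKM. The groups of values lay far apart: Slc3a2 exceeded Slc3a1 in 5 of 5 libraries, by 5.05 ± 0.08 (SD) in log2(FPKM + 1). With 5 libraries an exact permutation test that flips signs (two-sided) has 32 sign patterns and cannot give less than p = 0.062. All 12 pairs with the same sign in 5 of 5 libraries had that p, adjusted to 0.0833 over the 16 pairs, so no pair could pass 0.05. Exons of Slc3a1 overlap those of Prepl on the opposite strand over 601 bases, and strand was not stated to be kept. In all, 14 members had such an overlap, of 117 to 2631 bases: 8 called above 1 FPKM, 5 below and 1 neither way. Among them were Slc7a2, Slc7a4, Slc7a7, Slc43a2 and Slc6a20b.

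The promoters of the heavy chains are shown because these genes differed most among the 16 pairs, with CpG dinucleotides in capitals. RefSeq's window on GRCm38.p6, the mm10 assembly, runs from 250 bases before to 50 after the annotated start. The window of Slc3a2 held 15 CpG and that of Slc3a1 held 7. The Slc3a2 window lies inside the GENCODE span of the gene (8706882 to 8723369), and no window at its upstream end was matched.
Slc3a2 promoter (chr19:8713848-8714147, minus strand): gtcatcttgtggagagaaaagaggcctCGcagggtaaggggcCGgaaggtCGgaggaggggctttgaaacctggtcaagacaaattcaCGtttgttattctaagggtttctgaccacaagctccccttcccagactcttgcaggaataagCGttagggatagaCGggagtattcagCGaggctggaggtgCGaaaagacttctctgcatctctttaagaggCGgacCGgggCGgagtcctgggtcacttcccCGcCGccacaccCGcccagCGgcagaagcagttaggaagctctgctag
Slc3a1 promoter (chr17:85028097-85028396, plus strand): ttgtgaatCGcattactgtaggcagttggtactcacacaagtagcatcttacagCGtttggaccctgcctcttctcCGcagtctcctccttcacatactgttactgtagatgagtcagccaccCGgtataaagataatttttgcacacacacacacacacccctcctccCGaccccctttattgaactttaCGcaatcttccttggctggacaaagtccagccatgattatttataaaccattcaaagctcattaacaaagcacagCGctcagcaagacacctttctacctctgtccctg

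Among the light chains, 4 of 10 were above 1 FPKM and 4 below, beside 52.3% and 41.4% of all genes tested. The test called 2 neither way. The order was led by Slc7a6 (y+LAT2, an exchanger of cationic for neutral amino acids) and not by Slc7a5 (LAT1, the best known importer of leucine and other large neutral amino acids). Slc7a6 (ENSMUSG00000031904, chromosome 8, 106168857 to 106198706) stood at 37.1, 38.1, 33.9, 38.4 and 37.98 FPKM. Slc7a11 (xCT), which takes up cystine in exchange for glutamate and so feeds glutathione synthesis, was at 10.99, 12.1, 12.0, 13.2 and 12.5 FPKM. Slc7a5 was at 6.25, 4.55, 8.46, 6.55 and 8.46 FPKM, lowest in replicate 2. None of these 3 genes overlapped another in level, except that Slc7a10 (Asc-1, a carrier of small neutral amino acids and D-serine) lay in the range of Slc7a5 at 6.94 ± 1.41 FPKM (SD, n = 5), with exons over those of Lrp3 on the opposite strand for 377 bases.

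Both light chains compared with their partner were below it. Slc7a5 lay below Slc3a2 in 5 of 5 libraries, with a difference of -2.27 ± 0.27 (SD) in log2(FPKM + 1) and FPKM ratios within a library from 0.131 to 0.227. Slc7a11 minus Slc3a2 was -1.50 ± 0.10, also in 5 of 5. Summed over the 6 light chains known to pair with Slc3a2 (Slc7a5, Slc7a6, Slc7a7, Slc7a8, Slc7a10 and Slc7a11), the level was 62.6 to 69.2 FPKM, or 1.69 to 1.86 times that of Slc3a2 in the same library. Slc7a6 made up 53.1% to 60.8% of that sum and Slc7a5 7.26% to 13.2%. The sum was formed after the values had been seen and is a description.

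Close relatives of the leading light chains were lower. Slc7a7 (y+LAT1), the relative of Slc7a6 found in gut and kidney, stood at 0.766, 1.04, 0.924, 0.762 and 1.16 FPKM, and Slc7a6 exceeded it by 4.31 ± 0.14 (SD) in log2(FPKM + 1) in 5 of 5 libraries. Slc7a8 (LAT2), the relative of Slc7a5, was at 1.28, 1.86, 1.21, 0.855 and 0.948 FPKM, and Slc7a5 exceeded it by 1.81 ± 0.52, again in 5 of 5. The difference between Slc7a5 and Slc7a8 was smallest in replicate 2, at 0.95, where Slc7a5 was lowest and Slc7a8 highest. Slc7a7 and Slc7a8 were the 2 light chains called neither way (limma adjusted p = 0.451 and 0.216), with Slc7a8 called above 1 FPKM when each library was rescaled to the same FPKM sum (adjusted p = 0.0302). The light chains that pair with Slc3a1 were low like their partner: Slc7a9 stood at 0.264, 0.0488, 0.146, 0.105 and 0.129 FPKM, and Slc7a13 was listed at 0.113, 0, 0, 0.0726 and 0.0223. Slc7a12 and Slc7a15 each had a value above 0 in 1 library only, 0.0535 FPKM in replicate 5 and 0.0345 in replicate 1.

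Slc7a11, the cystine carrier, had the least CpG in its promoter window of the 19 matched members called above 1 FPKM, with 4 CpG. Its promoter is shown for another feature: it is a textbook target of ATF4, the transcription factor of the amino acid response. The core of that response element, TGATGNAA, searched on both strands, was found 2 times, once in each orientation (capitals), whereas 3.97% of the 32851 RefSeq promoter windows held at least 1. The motif was also found in 1 window of Slc1a4 and in 2 of the 5 windows of Slc7a7, and a match is a description of letters only.
Slc7a11 promoter (chr3:50443564-50443863, minus strand): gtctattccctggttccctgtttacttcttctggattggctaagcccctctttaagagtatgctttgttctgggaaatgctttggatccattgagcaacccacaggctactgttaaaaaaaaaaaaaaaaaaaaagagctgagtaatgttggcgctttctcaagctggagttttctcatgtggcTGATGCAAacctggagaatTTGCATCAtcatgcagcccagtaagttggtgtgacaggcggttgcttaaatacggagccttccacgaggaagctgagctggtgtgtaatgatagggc

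All 5 genes of the cationic group lay above 1 FPKM, beside 52.3% of all genes tested, but were mostly close to it. The best known of them bring in arginine, lysine and ornithine without a heavy chain. Slc7a3 (CAT3) was the highest of the 5, at 7.20, 6.57, 5.35, 8.14 and 6.15 FPKM. Slc7a1 (CAT1), which many cell types use for arginine uptake, was the lowest, at 1.50, 1.17, 1.99, 1.41 and 1.78 FPKM. All 5 values of Slc7a3 were above all 5 of Slc7a1: Slc7a1 minus Slc7a3 was -1.58 ± 0.35 (SD) in log2(FPKM + 1). Slc7a1 and Slc7a2 (CAT2) overlapped, with a difference of -0.11 ± 0.35 and Slc7a1 higher in 3 of 5 libraries (two-sided exact permutation test, p = 0.5, adjusted p = 0.5). Slc7a4, whose transport function is uncertain, stood at 2.03, 3.47, 1.71, 1.59 and 1.52 FPKM, and the lysosomal Slc7a14 at 2.39, 2.23, 1.34, 1.58 and 1.24. Against a level of 2 FPKM, Slc7a1 was called below (log2 difference -0.23, limma adjusted p = 0.0391).

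Of the 6 Slc1 members, both carriers of neutral amino acids lay above 1 FPKM and the 4 high-affinity glutamate carriers in the set lay below. Over all genes tested, 52.3% lay above and 41.4% below. The glutamate carrier of radial glia and astrocytes, Slc1a3 (GLAST), which the choice of members left out, was above 1 FPKM at 11.9, 13.8, 19.2, 15.5 and 17.4 FPKM. Slc1a5 (ASCT2), which exchanges glutamine and other neutral amino acids, was at 17.6, 19.6, 14.8, 16.8 and 20.3 FPKM. Slc1a4 (ASCT1), a carrier of serine and alanine, was at 4.01, 3.29, 3.27, 3.89 and 4.34 FPKM, and Slc1a5 exceeded it by 1.98 ± 0.17 (SD) in log2(FPKM + 1) in 5 of 5 libraries. The 4 glutamate carriers of the set were under 1 FPKM in each library, and so under Slc1a3. Slc1a1 (EAAC1, of neurons and epithelia) stood at 0.524 ± 0.111 FPKM, Slc1a6 (EAAT4, of Purkinje cells) at 0.429 ± 0.134, Slc1a2 (GLT-1, of astrocytes) at 0.322 ± 0.163 and Slc1a7 (EAAT5, of retina) at 0.1002 ± 0.0365 (SD, n = 5). Slc1a1 and Slc1a2 overlapped: the difference was 0.21 ± 0.25, with Slc1a1 higher in 4 of 5 libraries (two-sided exact permutation test, p = 0.1875, adjusted p = 0.2). Exons of Slc1a1 lie over 2631 bases of exons of the antisense gene 4430402I18Rik.

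The Slc38 family of sodium-coupled neutral amino acid carriers held the largest share of member transcripts, between 54.4% and 60.6% of the summed member FPKM of a library. Of its 11 genes 9 lay above 1 FPKM and 2 below, beside 52.3% and 41.4% of all genes tested. Slc38a4 (ENSMUSG00000022464), an imprinted gene expressed from the paternal allele in mouse, stood at 53.9, 81.8, 96.9, 94.8 and 86.3 FPKM. Slc38a6 (ENSMUSG00000044712, chromosome 12, 73286779 to 73354049), one of the less studied members, was at 60.7, 73.9, 88.3, 91.0 and 85.8 FPKM. Both were lowest in replicate 1. Slc38a2 and Slc38a1, which carry glutamine and alanine, were steadier. Slc38a2 (SNAT2) stood at 55.5, 51.4, 55.5, 60.1 and 55.7 FPKM, and Slc38a1 (SNAT1) at 42.95, 46.7, 51.3, 50.4 and 51.2 FPKM. Slc38a2 exceeded Slc38a1 in 5 of 5 libraries, by 0.20 ± 0.11 (SD) in log2(FPKM + 1). Slc38a2 minus Slc38a4 was -0.54 ± 0.33, with Slc38a4 higher in 4 of 5 libraries and slightly lower in replicate 1 (two-sided exact permutation test, p = 0.125, adjusted p = 0.143); without replicate 1 the difference was -0.68.

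The remaining Slc38 genes lay well under these 4. Slc38a3 (SNAT3), a system N carrier of glutamine and histidine, stood at 9.19, 7.90, 5.84, 7.64 and 5.89 FPKM, and Slc38a10 at 5.10, 4.27, 4.13, 4.21 and 4.39. Slc38a7, a lysosomal glutamine exporter, was at 3.09 ± 0.701 FPKM, and Slc38a9, the lysosomal arginine sensor that acts on mTORC1, at 1.54 ± 0.190 (SD, n = 5). Slc38a9 was nearest to 1 FPKM among the members called above it (log2 difference 0.34, limma adjusted p = 0.00304) and was called below a level of 2 FPKM. Slc38a8 was set apart by replicate 1, at 4.29 FPKM, against 1.51, 1.42, 1.89 and 1.62 FPKM in replicates 2 to 5. Its difference from 1 FPKM was 0.58 on the log2 scale (adjusted p = 0.0126), and 0.38 without replicate 1 (adjusted p = 0.00431). Slc38a5 (SNAT5), the other system N carrier, and Slc38a11 lay below 1 FPKM at 0.573 ± 0.195 and 0.514 ± 0.310 FPKM. Slc38a5 is also known from brain endothelium, whose 8 markers summed to 16.5 to 23.8 FPKM, with Egfl7 alone at 10.4 to 13.7. The part of endothelium in the level of Slc38a5 was not tested.

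Of the 4 genes at the top of the family, 3 lie side by side on the minus strand of chromosome 15: Slc38a1 (96571418 to 96642913), Slc38a2 (96687392 to 96699730) and Slc38a4 (96994820 to 97055956), with gaps of 44478 and 295089 bases. All 3 lay above 48 FPKM on average. Their promoters were not alike in the pair for which RefSeq windows were at hand, shown here with CpG in capitals. The window of Slc38a2 held 41 CpG and the most upstream of the 3 windows of Slc38a4 held 5, as did the other windows of that gene.
Slc38a2 promoter (chr15:96699679-96699978, minus strand): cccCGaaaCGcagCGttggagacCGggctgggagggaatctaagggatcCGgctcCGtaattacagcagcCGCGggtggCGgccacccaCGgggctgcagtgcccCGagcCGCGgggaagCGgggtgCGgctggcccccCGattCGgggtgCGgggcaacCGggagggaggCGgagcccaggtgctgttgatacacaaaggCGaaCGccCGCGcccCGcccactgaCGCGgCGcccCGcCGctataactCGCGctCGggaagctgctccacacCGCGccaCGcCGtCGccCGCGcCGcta
Slc38a4 promoter (chr15:97055907-97056206, minus strand): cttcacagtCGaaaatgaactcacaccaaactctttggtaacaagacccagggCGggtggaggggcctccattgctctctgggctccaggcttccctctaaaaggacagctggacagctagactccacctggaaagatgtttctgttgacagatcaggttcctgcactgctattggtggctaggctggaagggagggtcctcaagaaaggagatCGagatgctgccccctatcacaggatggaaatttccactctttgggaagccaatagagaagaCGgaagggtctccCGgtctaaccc

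In all, 13 pairs of members adjacent in the set lay within 1000000 bases of each other. Slc7a10 and Slc7a9, 247681 bases apart on chromosome 7, stood at 6.94 ± 1.41 and 0.139 ± 0.0790 FPKM (SD, n = 5). Slc43a1 and Slc43a3, 72984 bases apart on chromosome 2, were both above 1 FPKM. Slc36a3, Slc36a2 and Slc36a1 on chromosome 11, Slc6a3, Slc6a18 and Slc6a19 on chromosome 13 and Slc6a20b and Slc6a20a on chromosome 9 were groups of genes all called below. Slc6a13 and Slc6a12, 5342 bases apart on chromosome 6, were called neither way and listed at 0. Slc7a6 and Slc7a6os end 2010 bases apart on opposite strands, with Slc7a6os at 3.73 ± 0.504 FPKM, and their annotated exons do not overlap.

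Of the 4 Slc36 carriers, 1 lay above 1 FPKM and 3 below, beside 52.3% and 41.4% of all genes tested. Slc36a4, a high-affinity carrier of proline and tryptophan, stood at 1.97, 2.49, 2.39, 2.55 and 2.13 FPKM. Slc36a1, the lysosomal member, was at 0.799, 0.894, 0.746, 0.473 and 0.461 FPKM, under Slc36a4 in all 5 libraries: Slc36a4 minus Slc36a1 was 0.99 ± 0.21 (SD) in log2(FPKM + 1). Slc36a1 was no longer called below 1 FPKM after rescaling each library to the same FPKM sum (limma adjusted p = 0.218). Slc36a2 averaged 0.394 ± 0.118 FPKM, and Slc36a3 had 0.0279 FPKM in replicate 1 and was listed at 0 elsewhere.

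All 3 Slc43 genes lay above 1 FPKM, beside 52.3% of all genes tested. Slc43a1 (LAT3), a facilitated carrier of large neutral amino acids, stood at 22.3, 25.1, 21.3, 26.0 and 23.7 FPKM, above Slc7a5 in every library. Slc43a2 (LAT4), its relative with similar substrates, was at 2.00, 2.24, 1.08, 1.98 and 2.67 FPKM. The difference Slc43a2 minus Slc43a1 was -3.06 ± 0.25 (SD) in log2(FPKM + 1), with Slc43a2 lower in 5 of 5 libraries. Slc43a3, which carries purine bases rather than amino acids, was at 4.16, 4.79, 7.28, 6.12 and 9.97 FPKM.

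**Figure D2:**
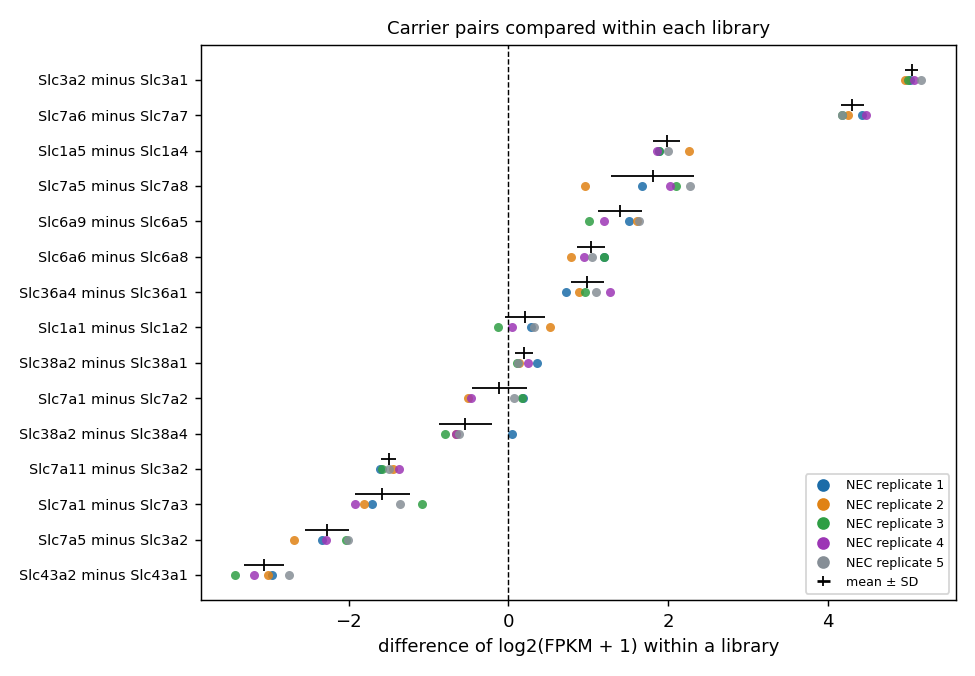
Differences of log2(FPKM + 1) within each library for the carrier pairs described; points are the 5 NEC libraries and bars the mean ± SD. In 12 pairs all 5 libraries lie on the same side of 0, from Slc43a2 minus Slc43a1 at -3.06 to Slc3a2 minus Slc3a1 at 5.05.

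Of the Slc6 carriers that serve uptake of osmolytes, creatine or amino acids, 3 of the 10 measured were above 1 FPKM and 6 below. Over all genes tested, 52.3% were above and 41.4% below. Slc6a6, the taurine carrier, stood at 9.37, 10.3, 12.6, 11.4 and 11.6 FPKM, and Slc6a8, the creatine carrier, at 3.53, 5.56, 4.92, 5.46 and 5.12. Slc6a6 exceeded Slc6a8 in 5 of 5 libraries, by 1.03 ± 0.17 (SD) in log2(FPKM + 1). Slc6a15, a carrier of branched-chain amino acids and proline found in brain, was between them at 7.57, 8.504, 8.22, 10.3 and 8.57 FPKM. Slc6a17, its vesicular relative, was called neither way at 0.812, 0.549, 0.671, 0.932 and 1.20 FPKM, and was called below 1 FPKM without replicate 5 (limma adjusted p = 0.0394). The carriers of gut and kidney (Slc6a14, Slc6a18, Slc6a19, Slc6a20a and Slc6a20b) averaged between 0.0736 and 0.236 FPKM. Slc6a7, the brain proline carrier, had 0.0139 FPKM in replicate 1 and was listed at 0 elsewhere.

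Most plasma membrane carriers of neurotransmitters in the set were low. Of the 8 tested, 6 were below 1 FPKM and 1 above, beside 41.4% and 52.3% of all genes tested, with Slc6a13 called neither way. The 1 above was Slc6a9 (GlyT1), a glycine carrier of glia, at 2.02, 2.13, 1.06, 1.33 and 2.18 FPKM. Its exons overlap those of antisense genes, including Ccdc24 and B4galt2, over 1986 bases, and reads from either strand could not be told apart. The neuronal glycine carrier Slc6a5 (GlyT2) was at 0.0573, 0.0222, 0.0212, 0.0154 and 0.0189 FPKM, and Slc6a9 exceeded it by 1.40 ± 0.28 (SD) in log2(FPKM + 1) in 5 of 5 libraries. That scale understates differences from so low a level, and with a pseudocount of 0.1 the difference was 3.82.

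The GABA carriers were low or near the threshold. Slc6a13 (GAT2), which is known from meninges as well, stood at 1.03, 1.40, 1.01, 0.833 and 0.652 FPKM and was called neither way (limma adjusted p = 0.810). Slc6a11 (GAT3, of astrocytes) was at 0.215, 0.0790, 0.113, 0.155 and 0.0895 FPKM, all under the lowest value of Slc6a13. The monoamine carriers rested on few reads. The serotonin carrier Slc6a4 was listed at 0.166, 0.122, 0, 0.0976 and 0.0222 FPKM, the dopamine carrier Slc6a3 at 0.0403, 0.0586, 0, 0 and 0.0133, and the noradrenaline carrier Slc6a2 at 0.0596, 0.0520, 0.00825, 0.0240 and 0.00736. Counting 200 bases off the longest annotated transcript, 5 members had under 3 implied reads in every library and 14 in at least 1, so differences among them were not detectable at this depth.

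Other genes of amino acid and transmitter handling were read from lists chosen with earlier results of these data known. Of 20 measured genes of amino acid sensing, including Mtor and Rptor of mTORC1 itself, 20 lay above 1 FPKM, beside 52.3% of all genes tested. They ran from Sesn3 at 1.62 ± 0.254 to Lamtor2, a subunit of the Ragulator scaffold, at 140 ± 8.21 FPKM (SD, n = 5). Sesn2, a relative of Sesn1 and Sesn3, was counted in the amino acid response list instead and lay below, at 0.753 ± 0.256 FPKM. Of 19 genes of the amino acid response, 13 lay above, 5 below and Atf3 was called neither way. Atf4, its transcription factor, stood at 88.3 ± 4.01 FPKM, asparagine synthetase Asns at 261 ± 40.9, and the serine synthesis enzymes Phgdh and Psat1 at 302 ± 19.0 and 340 ± 36.2. Ddit3 (CHOP), a transcription factor of the stress response, was also above at 7.78 ± 1.55 FPKM, and the 5 below were Chac1, Trib3, Ddit4, Sesn2 and Cebpb. All 6 glutathione genes lay above, with glutathione synthetase Gss at 26.0 ± 2.53 FPKM.

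Of 12 measured amino acid carriers of other families, 9 lay above and 2 below, beside 52.3% and 41.4% of all genes tested. The mitochondrial aspartate-glutamate carrier Slc25a13 stood at 53.8 ± 4.46 FPKM. On the transmitter side, 1 of the 5 tested vesicular carriers lay above 1 FPKM and 3 below. That 1 was Slc18a2, the vesicular monoamine carrier, at 6.20, 6.17, 9.40, 9.03 and 7.86 FPKM, and the vesicular GABA carrier Slc32a1 was listed at 0 in all libraries. Of 12 tested genes of transmitter synthesis 4 lay above and 6 below. The 4 included glutamine synthetase Glul at 132 ± 6.09 FPKM, whose product also serves general metabolism, and aromatic amino acid decarboxylase Ddc at 5.19 ± 0.729, while tyrosine hydroxylase Th averaged 0.269 ± 0.190.

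The carriers differed among themselves in how steady they were between libraries. Over the 31 members averaging 1 FPKM or more (50.4% of all genes of the table did) the median SD of log2(FPKM + 1) was 0.20, beside 0.16 over 10983 genes. The 5 members with the largest SD were Slc38a8, Slc43a3, Slc7a4, Slc38a4 and Slc7a5. Slc38a4 deviated from its mean by -0.58 in replicate 1 and 0.25 in replicate 3 on the log2 scale, and Slc43a3 by -0.48 in replicate 1 and 0.61 in replicate 5. Replicate 1 was the lowest library for 35.5% of the 31 members and for 35.0% of all genes of at least 1 FPKM. Replicate 3 was the lowest for as many members, 35.5%, but for 20.7% of all such genes. The median mesenchyme marker deviated by -0.79 in replicate 1, 0.47 in replicate 3 and 0.34 in replicate 5, and the median endothelial marker by -0.37, 0.25 and 0.26. In replicate 1 the median surface ectoderm marker stood at -0.31 and the median erythroid marker at -0.12. Replicate 1 was highest for 5 members: Slc38a8 (0.82), Slc7a14 (0.32), Slc38a3 (0.31), Slc7a10 (0.23) and Slc38a10 (0.17). They were 16.1% of the 31 members, beside 16.4% of all genes of at least 1 FPKM. In that library the median neuronal marker stood at 0.27 and the median neural progenitor marker at 0.18. Slc7a4 was highest in replicate 2, by 0.58, where the median surface ectoderm marker stood at 0.36 and the median neuronal marker at 0.22. In replicate 3, Slc7a4 stood at -0.14 and the median surface ectoderm marker at 0.26. The part of these cell types in the carriers' levels was not tested.

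**Figure D3:**
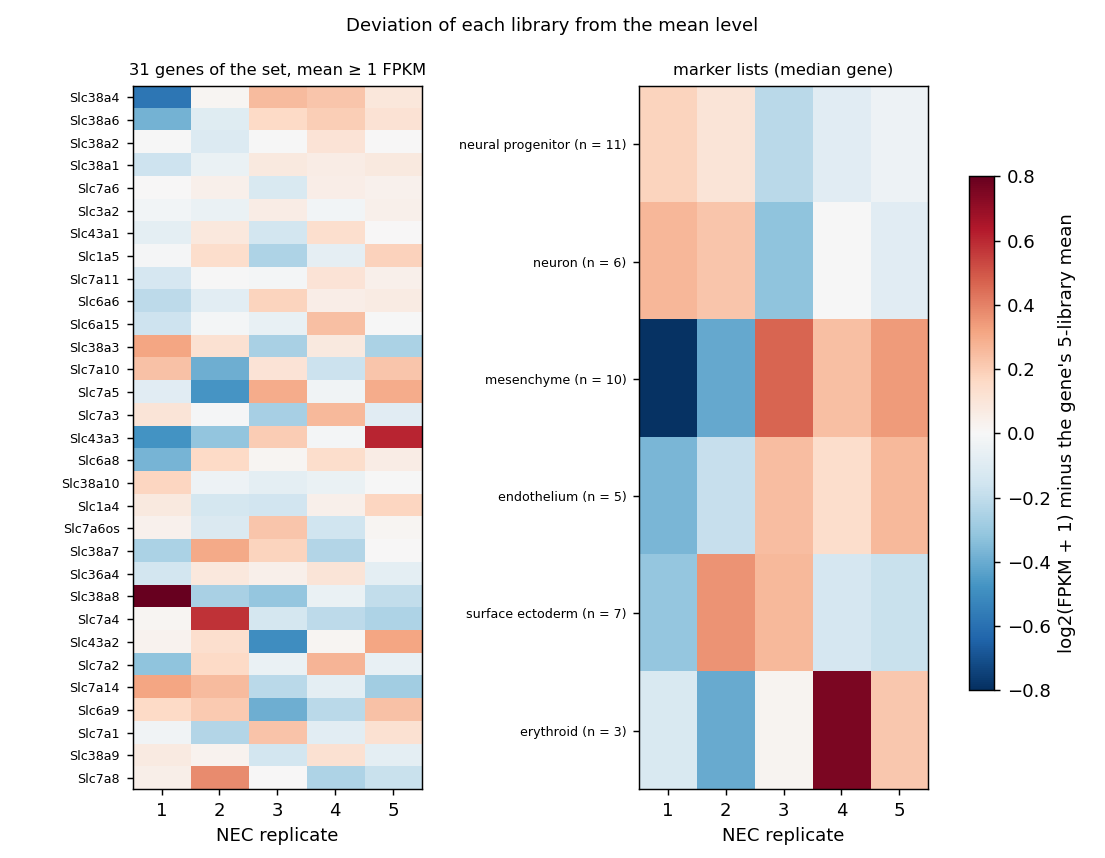
Deviation of each NEC library from the 5-library mean of log2(FPKM + 1), for the 31 genes of the set averaging 1 FPKM or more in descending order of level (left) and for the median gene of 6 marker lists (right). Slc38a4, Slc38a6, Slc43a3, Slc6a8 and Slc7a2 are low in replicate 1, as are the mesenchyme, endothelium, surface ectoderm and erythroid lists. Slc38a8 is high there, as are the neuron and neural progenitor lists, and Slc3a2 hardly moves. Of all genes of at least 1 FPKM, 35.0% are lowest in replicate 1.

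The promoter CpG counts of high and low members overlapped. RefSeq windows were matched by symbol for 43 of the 61 members, and the window with the most CpG was taken for each gene. The 19 matched members above 1 FPKM had a median of 21 CpG, with a range of 4 to 42, and the 19 below had a median of 10, with a range of 1 to 32. Over all matched genes the medians were 23 CpG for 7745 genes above 1 FPKM and 5 CpG for 5784 below. Members with CpG-rich windows but low levels included Slc1a1, Slc1a6 and Slc6a11, each with 32 CpG. Members above 1 FPKM with the fewest CpG were Slc7a11 with 4 and Slc38a4 and Slc38a8 with 5 each.

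**Figure D4:**
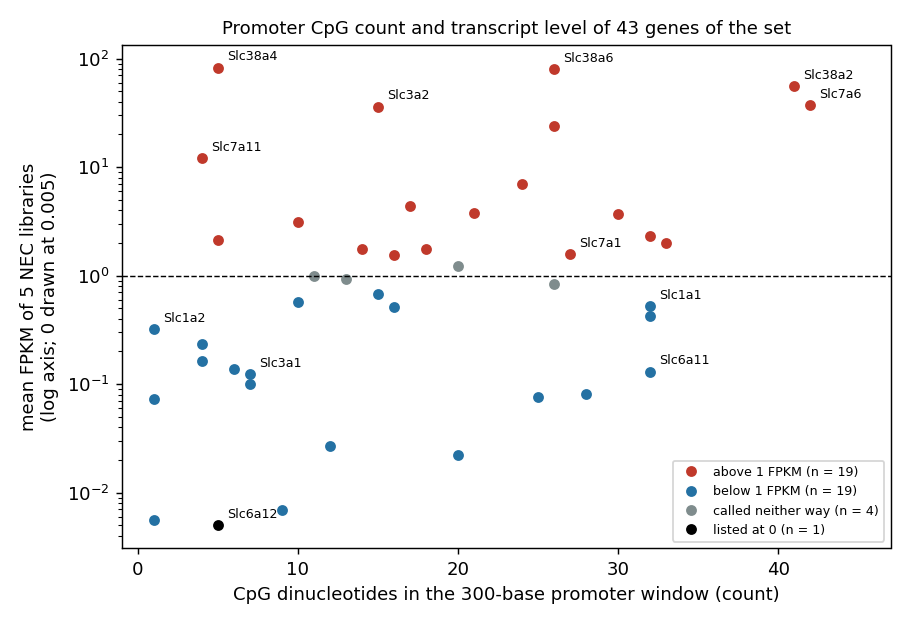
CpG count of the promoter window against the mean FPKM of the 5 NEC libraries (log axis) for the 43 matched genes, coloured by the call against 1 FPKM. Red points above the line spread from 4 to 42 CpG, with Slc7a11, Slc38a4 and Slc38a8 at the low end, and blue points below it from 1 to 32.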

How the data were processed

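Total RNA of 5 NEC libraries was measured by RNA sequencing. Per the labels' protocols, cDNA was made with a poly-dT primer and template switching, amplified and sequenced as single-end reads, with no molecular identifiers described. The authors deposited 1 table of FPKM values. In the submitters' processing notes the tools are Cuffdiff 2.2.1, TopHat2 2.0.11, cutadapt and CASAVA 1.8, and the build is mm10. Their roles, the annotation, filters and strand setting are not given. Because a value of 0 can be a failed estimate, it is given as listed at 0.

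Levels were tested with limma 3.58.1 in R 4.3.3 (intercept, variance trend, two-sided) on log2(FPKM + 1) against 1 FPKM, over all 19706 genes above 0 in at least 1 library. Differences of low genes are understated on that scale. Pairs were compared within libraries by exact sign-flip tests. Depth was read from the steps of values under 0.15 FPKM in genes with 1 transcript of over 800 bases, after taking 200 bases off each length. Coordinates and exon overlaps came from GENCODE M21, in which all 61 members were found, and promoters from RefSeq on GRCm38.p6. Alternatives were other pseudocounts, levels, scalings, filters, variance models and leaving out each library.

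Members, lists and pairs were chosen with earlier results of these data known. Genes were named by rule: the 20 highest members, both genes of each pair, the highest and lowest of each role group, the 5 with the largest SD and the 3 nearest to 1 FPKM on either side; others were named after their values were seen. The counts cover all members, pairs and listed genes, of which a few are not reported here by name. Values after ± are SDs over the 5 libraries, and the read floors cover counting error only.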

Additional observations from a re-analysis of the deposited data

Results flagged for a closer look

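Of 60 results examined (named members over the 5 libraries and pair differences), 8 had a library whose gap to the nearest other library exceeded Dixon's 95% critical value for the group's range; chance flags about 1 in 20. Slc38a8 was flagged by replicate 1 (4.29 FPKM, next highest 1.89, gap over range 0.836), and so was Slc38a10 (5.10 FPKM, next highest 4.39, gap over range 0.733). Slc7a4 was flagged by replicate 2 (3.47 FPKM, next highest 2.03, gap over range 0.739). The difference Slc38a2 minus Slc38a4 was flagged by replicate 1, at 0.04 on the log2 scale beside -0.62 in the nearest library (gap over range 0.795). Slc6a5 was flagged by replicate 1 at 0.0573 FPKM (gap over range 0.837). Slc36a3, Slc6a7 and Slc7a15 were listed at 0 in all but replicate 1, which gives a gap over range of 1.0 by construction, and their values of 0.0279, 0.0139 and 0.0345 FPKM are of the size of single reads.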

How the results depend on the processing

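No paired analysis was possible because all 5 libraries form a single group. The 16 pair differences kept their direction under every alternative run, and 29 of 44 tested named members kept direction and side of the threshold. A filter on means under 0.1 FPKM left 14 members and 3495 genes called below 1 FPKM, since fewer low genes were tested; no other count moved by over 1.5 times. Leaving out each library in turn gave 30 to 30 members above, 23 to 26 below, 10195 to 10281 genes above and 7328 to 7997 below. Leaving out Slc7a6os, chosen after seeing the data, left 29 members above. Rescaling each library to the same sum raised its FPKM by 0.24 to 0.42 on the log2 scale and reversed members called neither way: Slc6a13 (0.15), Slc6a17 (0.0171) and Slc7a7 (0.11). Leaving out each library in turn moved Slc6a13 between -0.0930 and 0.0415, above 0 without replicate 4 or 5. Moving the level changes the sign by construction: against 0.5 FPKM, Slc1a1 (0.0200), Slc36a1 (0.15), Slc6a13 (0.39), Slc6a17 (0.28) and Slc7a7 (0.36) had positive differences, and against 2 FPKM, Slc38a8 (-7.5e-05), Slc38a9 (-0.24), Slc43a2 (-0.0270), Slc6a9 (-0.15), Slc7a1 (-0.23), Slc7a2 (-0.12), Slc7a4 (-0.00403) and Slc7a8 (-0.44) had negative ones. Depth limits low members: 3 reads in a transcript of 2000 bases were worth 0.0588 to 0.0808 FPKM.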
